A study of Homo sapiens with 12 samples.

Results

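The ERBB receptors and the ligands that bind them were described from RNA-seq of HCT116, a human colorectal carcinoma cell line of epithelial origin. The group comprises 10 genes, which were listed by name and not by their counts. These are the receptors *EGFR*, *ERBB2*, *ERBB3* and *ERBB4* and the ligands *EGF*, *TGFA*, *AREG*, *HBEGF*, *BTC* and *EREG*. All 10 are among the 58037 genes of the deposited count table. The experiment had 12 samples of parental (wild-type) HCT116, 3 each of DMSO, Nutlin-3a at 10 μM, NVP-2 at 20 nM and both drugs together, collected after 8 h. Nutlin-3a blocks the binding of MDM2 to p53, and NVP-2 inhibits CDK9, the kinase of P-TEFb. In the table as analysed here, the columns named for these samples had identical counts at every gene, with 0 genes differing between any of the 12 columns. The values were therefore treated as 1 HCT116 profile, of 22720718 counts and of unknown treatment, and no effect of either drug on the ERBB genes was computed.

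ERBB receptors are transmembrane tyrosine kinases that pair up when a ligand of the EGF family binds their extracellular part. EGFR, ERBB3 and ERBB4 bind ligands, whereas ERBB2 has no known ligand of its own and acts as the preferred partner of the others, and ERBB3 has little kinase activity and recruits PI3K when its partner phosphorylates it. The ligands are made as membrane-anchored precursors that proteases such as ADAM10 and ADAM17 release from the cell surface. In the intestinal epithelium, signalling through these receptors to RAS-MAPK and PI3K-AKT supports proliferation, and EGFR is a target of antibodies used in colorectal cancer. HCT116 carries an activating mutation of *PIK3CA*, which lies downstream of the receptors.

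The profile had the RNA of an epithelial line. Of 7 epithelial markers 5 had an RPKM of at least 1, with *KRT8*, *KRT18*, *KRT19* and *EPCAM* between 182 and 514, whereas the intestinal genes *CDH17* and *VIL1* had 3 and 4 counts. RPKM here is the CPM of a gene, its count scaled to the total of the profile, divided by the gene length in kilobases, for which the merged exons of all annotated transcripts were used. With merged exons none of 11 markers of immune, endothelial and stromal cells reached an RPKM of 1. The highest, *COL1A1*, was at 0.972 (95% counting interval 0.846 to 1.12) and reached 1.48 with the length of the canonical transcript. With coding length *COL1A1* was at 1.99 and *CD14* at 1.06. Of the 11 markers, 5 of them, among them *PTPRC*, *DCN* and *LUM*, had 0 counts.

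The ligand mRNAs *AREG* and *EREG* were the highest of the 10 ERBB genes by CPM and by RPKM with each length. The margin depended on the scale, with *AREG* at 135 CPM against 59.9 for *ERBB2*, the next gene. Among the receptor mRNAs *ERBB2* was the most abundant. The 10 genes together had 12354 counts, or 0.0544% of the profile, of which the 6 ligands had 10037 and the 4 receptors 2317. An RPKM of at least 1 was reached by 7 of the 10 genes, 3 receptors and 4 ligands, against 44.6% of the 19629 protein-coding genes. *HBEGF*, *EGF* and *ERBB4* were below it. The intervals given below are 95% intervals by the method of Wilson, which cover no error other than that of counting. With 1 profile there is no spread between replicates, so that whether the differences exceed it could not be assessed.

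**Figure D1:**
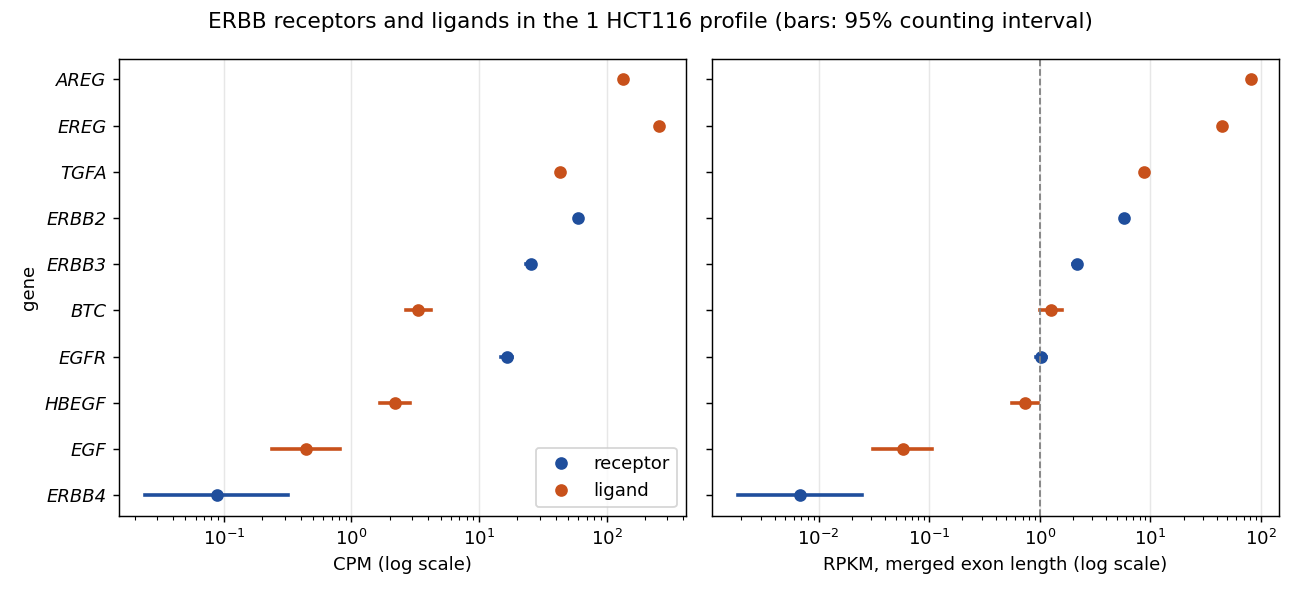
Levels of the 10 ERBB genes in the 1 profile, as CPM (left) and as RPKM with merged exon length (right), both on log axes. Points are values, bars 95% counting intervals, blue receptors and orange ligands, and the dashed line an RPKM of 1. *AREG* and *EREG* lie at the top on both scales, but *EREG* is higher in CPM (257 against 135) and *AREG* in RPKM (82.1 against 45.1), and *ERBB4* is lowest on both.

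Among the receptors, the order was *ERBB2*, *ERBB3*, *EGFR* and *ERBB4*. *ERBB2*, which lies on chromosome 17 of hg38 from 39687914 to 39730426 on the plus strand, had 1362 counts, corresponding to 59.9 CPM (56.8 to 63.2) and an RPKM of 5.81 (5.51 to 6.12). *ERBB3*, on chromosome 12 from 56076799 to 56103505 on the plus strand, had 578 counts, or 25.4 CPM (23.4 to 27.6) and an RPKM of 2.17 (2.00 to 2.36). *EGFR*, on chromosome 7 from 55019017 to 55211628 on the plus strand, had 375 counts, or 16.5 CPM (14.9 to 18.3) and an RPKM of 1.04 (0.936 to 1.15). *EGFR* was thus the lowest of the 3 receptors with more than a few counts, and its interval includes an RPKM of 1. *ERBB4*, on chromosome 2 from 211375717 to 212538841 on the minus strand, had 2 counts, less than the 3 that a count of 0 allows, and an RPKM of 0.00677 (0.00186 to 0.0247).

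Neighbours in this order were compared by the ratio of their RPKM values, with an exact (Clopper-Pearson) interval of the ratio of their counts. *ERBB2* was 2.67 times *ERBB3* (95% interval 2.42 to 2.95), and *ERBB3* was 2.10 times *EGFR* (1.84 to 2.40). Both ratios lie outside counting error. The ratio of *EGFR* to *ERBB4* was 153, but with 2 counts of *ERBB4* its interval runs from 42.1 to 1268. In terms of length-corrected abundance, *ERBB2* made up 64.4% of the receptor mRNA, *ERBB3* 24.1% and *EGFR* 11.5%. The order of the 4 receptors was the same with the length of the canonical transcript or of its coding sequence in place of merged exons, with which *ERBB3* was 2.72 and 1.39 times *EGFR*, respectively.

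Some annotated genes share exon sequence with the receptors. *MIEN1* and *PGAP3* overlap the exons of *ERBB2* by 571 and 144 bp on the opposite strand and had 844 and 147 counts. The authors counted reads by strand, so that these are kept apart from those of *ERBB2*. *EGFR-AS1*, an antisense RNA that shares 186 bp with *EGFR*, had 0 counts. A further protein-coding gene without a symbol (ENSG00000257411) overlaps *ERBB3* by 31 bp on the same strand and also had 0 counts.

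The ERBB receptors did not lead the receptor tyrosine kinases of the profile. Of 58 human receptor tyrosine kinases 22 (37.9%) had an RPKM of at least 1, against 44.6% of all protein-coding genes. Of the 58, 11 had 0 counts. The highest were *EPHA2*, an ephrin receptor, at 195, *AXL*, a receptor for GAS6, at 35.5, and *MET*, the receptor for hepatocyte growth factor, at 27.3. *ERBB2* was the 10th of the 58, between *RYK* (5.85) and *TYRO3* (4.70). *ERBB3* was the 15th, between *EPHB2* (2.30) and *LTK* (1.97). *EGFR* was the 22nd, between *STYK1* (1.18) and *ROR2* (0.831), and *ERBB4* the 45th, between *CSF1R* and *TIE1*, each with 1 count. Over the 58 genes the median RPKM was 0.256, compared with 1.60 for the 4 ERBB receptors and 0.589 for all protein-coding genes. The RPKM values of *RYK* and *ERBB2* differ by less than the interval of *ERBB2*, and the interval of *LTK* (1.68 to 2.30) overlaps that of *ERBB3*, so that neighbouring places are not all separated by the counts.

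**Figure D2:**
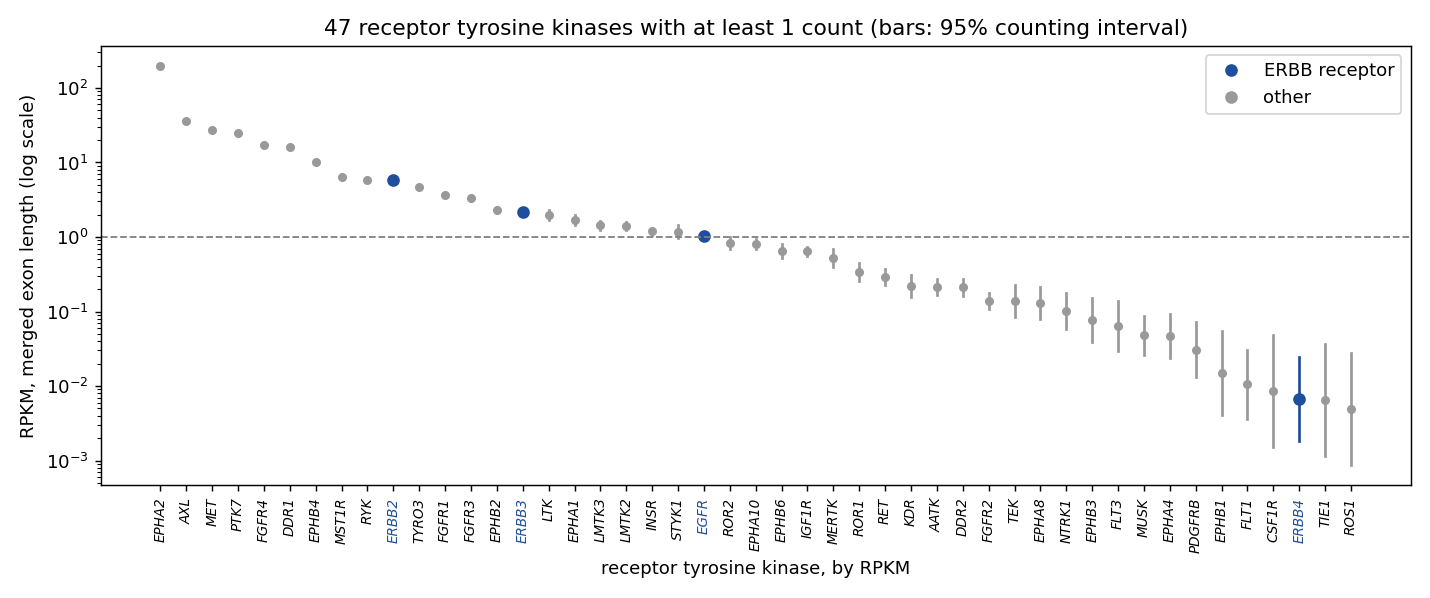
RPKM (log axis, merged exon length) of the 47 receptor tyrosine kinases with at least 1 count, ordered from highest to lowest; the 11 with 0 counts are not drawn. Points are values, bars 95% counting intervals, blue the ERBB receptors, grey the other kinases, and the dashed line an RPKM of 1. *ERBB2*, *ERBB3* and *EGFR* lie in the upper and middle part of the range and *ERBB4* near its lower end.

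Among the ligands, *AREG* and *EREG* together made up 92.1% of the summed RPKM and 88.8% of the summed CPM. *AREG*, which codes for amphiregulin, a ligand of EGFR, had 3064 counts, corresponding to 135 CPM (130 to 140) and an RPKM of 82.1 (79.3 to 85.1). *EREG*, which codes for epiregulin, a ligand of EGFR and ERBB4, had 5848 counts, or 257 CPM (251 to 264) and an RPKM of 45.1 (43.9 to 46.2). *TGFA* (transforming growth factor α, a ligand of EGFR) was the third, with 989 counts, 43.5 CPM (40.9 to 46.3) and an RPKM of 8.85 (8.32 to 9.42). Relative to all protein-coding genes, *AREG* and *EREG* ranked 463rd and 870th by RPKM, at the percentiles of 97.6 and 95.6, whereas *TGFA* was at 82.3, *ERBB2* at 77.3 and *EGFR* at 55.7. Among protein-coding genes with at least 10 counts the percentiles were lower, 96.2 for *AREG*, 92.9 for *EREG*, 71.9 for *TGFA*, 63.9 for *ERBB2* and 29.4 for *EGFR*, so that *EGFR* moved from above to below the middle.

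The remaining 3 ligands had 76 counts or fewer each, and of them only *BTC* had an RPKM of at least 1. *BTC* (betacellulin, a ligand of EGFR and ERBB4), on chromosome 4, had 76 counts, 3.35 CPM (2.67 to 4.19) and an RPKM of 1.26 (1.01 to 1.58). *HBEGF* (heparin-binding EGF-like growth factor), on the minus strand of chromosome 5 (140332843 to 140346603), had 50 counts, 2.20 CPM (1.67 to 2.90) and an RPKM of 0.736 (0.558 to 0.970). *EGF*, the founding ligand of the family, lies on the plus strand of chromosome 4 (109912883 to 110013766) and had 10 counts, 0.440 CPM (0.239 to 0.810) and an RPKM of 0.0577 (0.0313 to 0.106). The ligand that gives the family its name was therefore the lowest of the 6. *EREG* was 5.09 times *TGFA* (4.76 to 5.45), *TGFA* 7.02 times *BTC* (5.56 to 8.99) and *HBEGF* 12.8 times *EGF* (6.39 to 28.2). *BTC* and *HBEGF* lay closer together, at a ratio of 1.71 (1.18 to 2.50), and with canonical transcripts the interval of this ratio included 1 (0.933 to 1.97).

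Which of *AREG* and *EREG* was higher depended on the length used. By counts alone, *EREG* had 1.91 times as many as *AREG* (1.83 to 1.99). *EREG* has a long mRNA with a short coding sequence. Its canonical transcript is 4615 nt long and 89.0% of it is noncoding, against 1234 nt and 38.7% for *AREG*, although the precursors have 169 and 252 residues, respectively. With merged exons, *AREG* was 1.82 times *EREG* (1.74 to 1.91), and with canonical transcripts 1.96 times (1.88 to 2.05). With coding length, which leaves out the UTRs where reads also fall, the order was reversed, with a ratio of 0.351 (0.336 to 0.367).

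Across receptors and ligands, the order of 2 other pairs of neighbours also changed with the length. *TGFA* was 1.52 times *ERBB2* (1.40 to 1.66) with merged exons but 0.804 times (0.740 to 0.873) with canonical transcripts. With coding length *TGFA* was 5.70 times *ERBB2* (5.24 to 6.19). *BTC* and *EGFR* did not differ beyond counting error with merged exons, at a ratio of 1.22 (0.939 to 1.56). With canonical transcripts *BTC* was 0.757 times *EGFR* (0.583 to 0.971), and with coding length 1.38 times (1.06 to 1.77). The ligands had a higher summed RPKM than the receptors with each length, 15.3 times with merged exons, 9.19 times with canonical transcripts and 29.3 times with coding length, and 4.33 times as many counts.

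**Figure D3:**
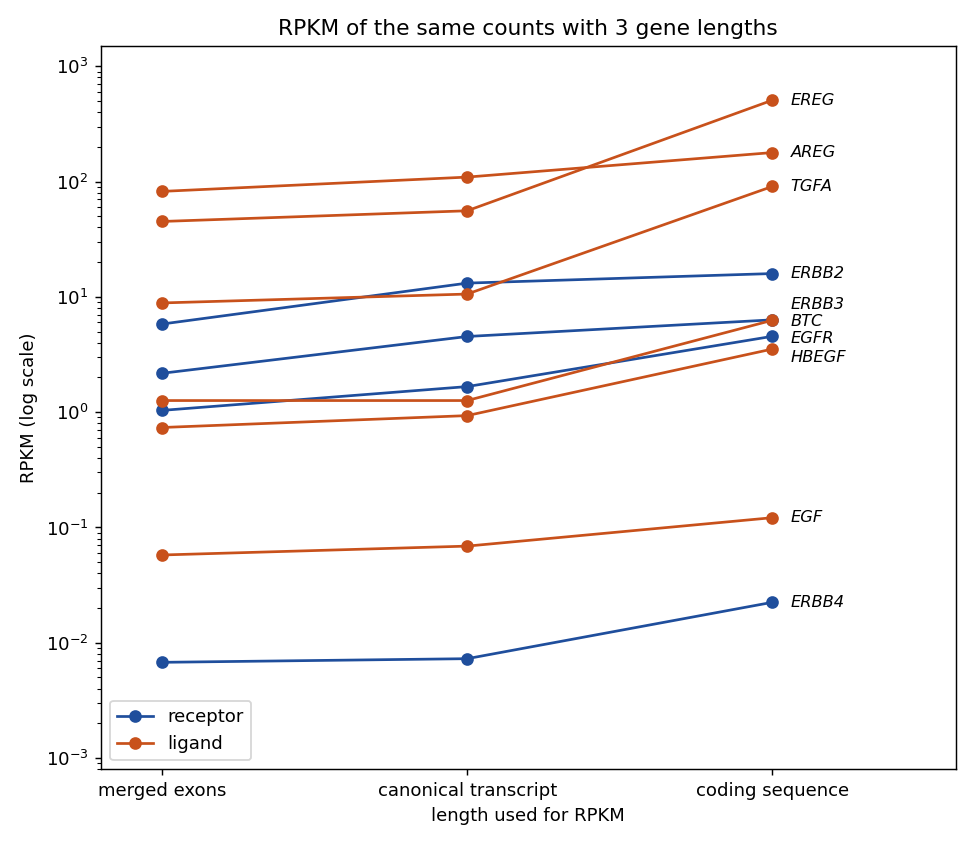
RPKM (log axis) of the 10 ERBB genes computed from the same counts with the length of merged exons, of the canonical transcript and of its coding sequence. Lines join the values of a gene, blue for receptors and orange for ligands. The lines of *AREG* and *EREG* cross between the canonical transcript and the coding sequence, and those of *TGFA* and *ERBB2* cross on both sides of the canonical transcript.

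*AREG* and *EREG* are neighbours on chromosome 4, in a stretch of 486 kb that also holds *EPGN*, which codes for the EGFR ligand epigen, and *BTC*. On the plus strand of hg38, *EPGN* runs from 74308470 to 74316789, *EREG* from 74365145 to 74388749 and *AREG* from 74445136 to 74455005. *EREG* starts 48.4 kb after the end of *EPGN*, and *AREG* starts 56.4 kb after the end of *EREG*. *BTC* lies a further 290 kb away, from 74744759 to 74794523 on the minus strand. The 4 ligand genes had 9, 5848, 3064 and 76 counts in this order, so that the abundant pair is flanked by members of the same family with few counts. In RPKM, *EREG* was 375 times *EPGN* (198 to 821) and *AREG* 65.1 times *BTC* (51.9 to 82.9). The next protein-coding gene below *EPGN*, *MTHFD2L*, had 183 counts, and the one above *BTC*, *PARM1*, had 525. The chemokine genes *CXCL2* and *CXCL3* had 2 counts each, and *CXCL5*, *PPBP* and *PF4* had 0.

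**Figure D4:**
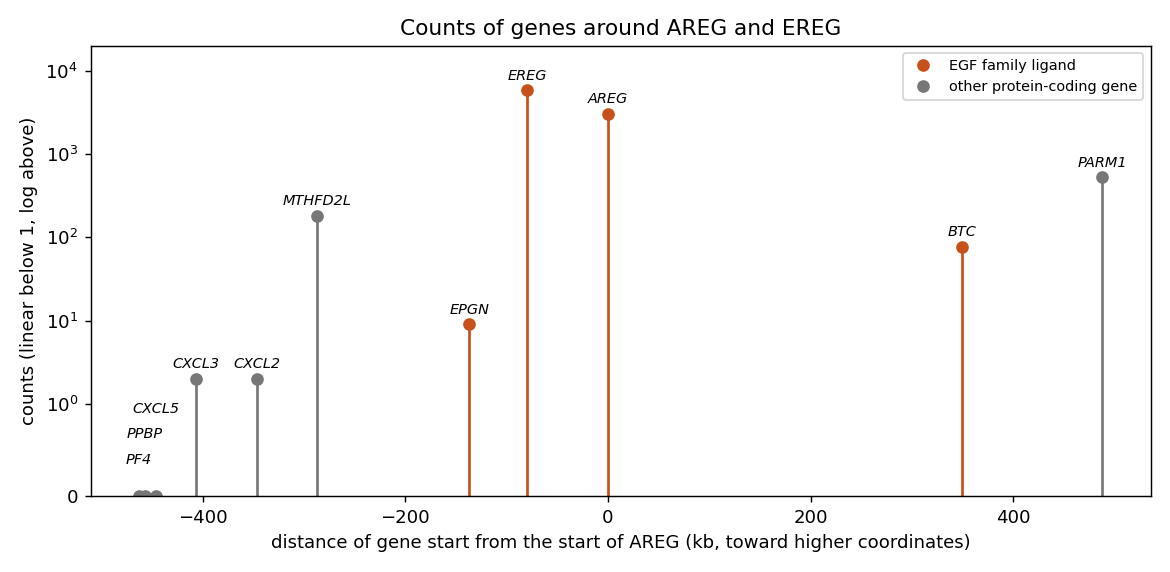
Counts (linear below 1 and log above) of the protein-coding genes around *AREG* and *EREG*, placed by the distance of their start from that of *AREG* in kb. Orange marks ligands of the EGF family and grey other genes. *EREG* and *AREG* stand at 5848 and 3064 counts, between *EPGN* at 9 and *BTC* at 76.

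The 120 bases upstream of the RefSeq start (GRCh38.p14) of these 4 neighbours are shown because the genes are of 1 family and lie side by side with counts from 9 to 5848. They are written 5′ to 3′ on the strand of the gene and end at the base before the start, at chr4:74308350-74308469, chr4:74365025-74365144, chr4:74445016-74445135 and, on the minus strand, chr4:74794524-74794643. Capitals mark a TATA box, with the letters TATAAA, and the cAMP response element, with the letters TGACGTCA.
EPGN: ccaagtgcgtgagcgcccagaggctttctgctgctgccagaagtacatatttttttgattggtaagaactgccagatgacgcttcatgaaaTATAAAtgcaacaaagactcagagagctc
EREG: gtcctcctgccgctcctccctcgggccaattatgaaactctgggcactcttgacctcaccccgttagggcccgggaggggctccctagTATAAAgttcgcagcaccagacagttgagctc
AREG: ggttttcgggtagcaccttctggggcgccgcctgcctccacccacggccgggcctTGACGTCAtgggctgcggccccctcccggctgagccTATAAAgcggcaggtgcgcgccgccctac
BTC: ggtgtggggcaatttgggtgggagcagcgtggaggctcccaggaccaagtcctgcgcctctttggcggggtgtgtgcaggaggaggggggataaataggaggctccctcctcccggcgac

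The letters TATAAA begin 29 bases before the start in *EPGN* and *AREG* (position -29) and 32 bases before it in *EREG* (position -32). Both motifs were chosen after the sequences had been seen and were searched on both strands of the window from 250 bases before to 50 bases after each start. The windows of *BTC*, *EGF*, *TGFA*, *HBEGF*, *ERBB2* and *ERBB4* did not hold TATAAA. Only these exact letters were searched, so that similar ones, such as gataaata in the printed sequence of *BTC*, are not marked. For *ERBB2* the window is that of a start at 39688094. The canonical transcript of *ERBB2* starts at 39700064, and the sequence around that start was not searched. *EGFR* has 2 annotated starts in the RefSeq table, of which only the downstream start, at 55109839, had it, at positions -36 and -146. Of all 35116 promoter windows, 11.5% held TATAAA on either strand, and 2.30% held it on the strand of the gene starting between positions -40 and -20. TGACGTCA begins at position -65 of *AREG* and was found in no other window of the ERBB genes, and in 1.85% of all windows. *EPGN*, with 9 counts, has the same TATA letters at the same place as *AREG*, with 3064. Whether the letters bear on the counts was not tested. The number of CG dinucleotides was 4 in the window of *EPGN*, 12 in *EREG*, 27 in *AREG* and 12 in *BTC*, compared with a median of 14 over all windows. *ERBB3* has no entry in the table. These matches describe the sequence, and binding to them was not measured.

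The other ligands of the family had few counts. With merged exons none of *EPGN*, *NRG1*, *NRG2*, *NRG3* and *NRG4* reached an RPKM of 1, the highest being *EPGN* at 0.120 (0.0632 to 0.228) and *NRG1* at 0.115 (0.0888 to 0.150). With canonical transcripts *NRG1* (0.206) was above *EPGN* (0.148), and with coding length *NRG1* reached 1.28. The neuregulins *NRG1* and *NRG2*, the ligands of ERBB3 and ERBB4, had 56 and 6 counts, and *NRG4* and *NRG3*, ligands of ERBB4, had 3 and 1. With merged exons, *ERBB3*, at an RPKM of 2.17, was thus measured beside its ligands *NRG1* and *NRG2* at 0.115 and 0.0574. *EGFR*, at 1.04, was measured beside *AREG*, *EREG* and *TGFA* at 82.1, 45.1 and 8.85. Its other ligands *BTC*, *HBEGF*, *EPGN* and *EGF* were at 1.26, 0.736, 0.120 and 0.0577. The 4 genes for release of the ligands were all at an RPKM of at least 1, against 44.6% of all protein-coding genes. These are *ADAM10* at 5.05, *ADAM17* at 2.46 and the rhomboid pseudoproteases *RHBDF1* and *RHBDF2*, which bring ADAM17 to the cell surface, at 2.70 and 3.67.

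Downstream of the receptors, most of the RAS-MAPK genes were above the threshold, and the shares of the adaptors and the PI3K-AKT genes were near that of all protein-coding genes. An RPKM of at least 1 was found for 9 of 10 RAS-MAPK genes, 5 of 12 adaptors and 4 of 10 PI3K-AKT genes, compared with the 44.6% of all protein-coding genes. With canonical transcripts these counts were 9, 6 and 5, and 9631 of all 19629 protein-coding genes. The median RPKM of the 3 lists was 13.2, 0.655 and 0.552, beside 0.589 over all protein-coding genes. In the RAS-MAPK list the range with merged exons was from *BRAF* (0.263) to *HRAS* (30.8). With canonical transcripts *BRAF* was at 0.954, and *MAP2K2* (75.1) was above *HRAS* (69.9). With coding length *BRAF* was at 2.68 and *NRAS* was the highest at 185. Among the adaptors, *GRB2*, which links phosphorylated receptors to SOS, was the highest at 56.1 and *SHC4* the lowest, with 1 count. In the PI3K-AKT list *AKT1* was the highest at 22.9. The lowest, *PIK3R2*, had 1 count, and 3942 bp of its exons are shared on the same strand with another annotated gene (ENSG00000268173), which had 0 counts, so that its level is uncertain.

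Inhibitors of the pathway included the gene with the highest RPKM of the 8 lists with merged exons. *ERRFI1*, which codes for MIG6, a protein that binds and inhibits the kinase domain of EGFR and ERBB2, had 11713 counts and an RPKM of 123 (121 to 126), that is, above *AREG* and 119 times *EGFR*. Of the 16 genes for feedback and receptor down-regulation 10 (62.5%) had an RPKM of at least 1, against 44.6% of all protein-coding genes. The median of the list was 5.54. After *ERRFI1*, the highest were the ERK phosphatase genes *DUSP5* (46.2) and *DUSP6* (27.0) and the RAS-MAPK inhibitor *SPRY4* (27.5). The list was not uniform. Unlike *SPRY4*, the genes *SPRY2* and *SPRY1* were below 1, at 0.767 and 0.300 with merged exons. With canonical transcripts *SPRY2* was at 1.08. Of the genes for CBL ubiquitin ligases, *CBLC* was at 15.3 and *CBL* at 5.15, whereas *CBLB*, the lowest of the list, had 5 counts and an RPKM of 0.0179. The transmembrane inhibitors *LRIG1*, *LRIG2* and *LRIG3* were all below 1, at 0.231, 0.508 and 0.127.

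**Figure D5:**
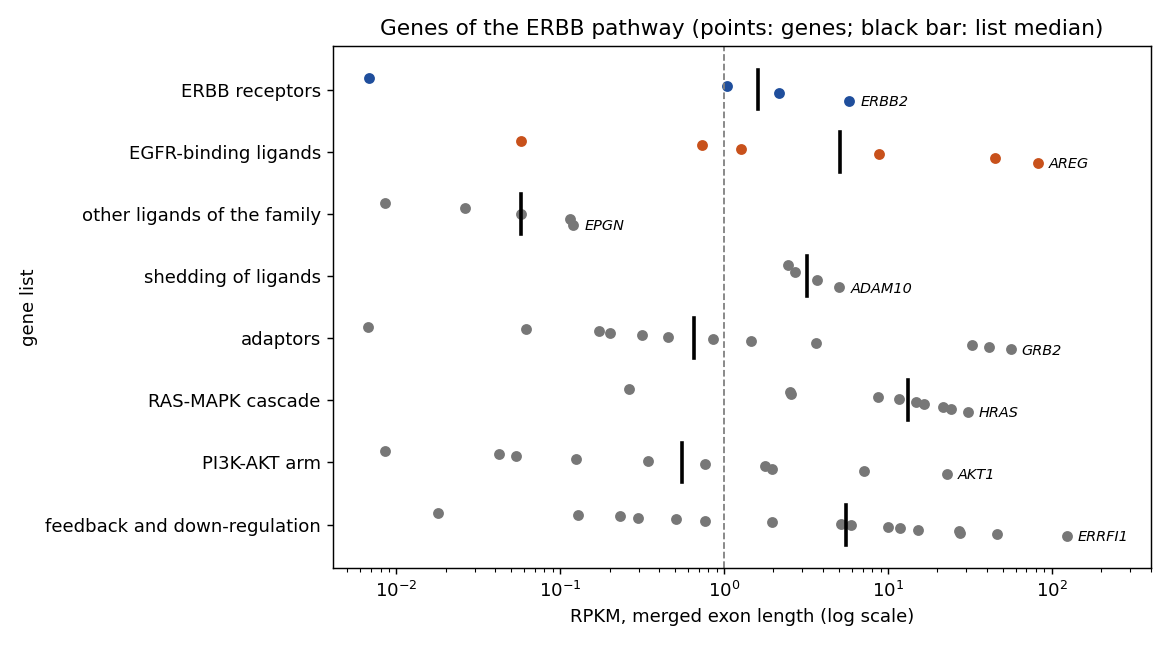
RPKM (log axis, merged exon length) of the genes of 8 lists of the ERBB pathway. Points are genes, spread vertically within a list by rank, black bars list medians, and the dashed line an RPKM of 1. The highest gene of each list is named. *ERRFI1* (123) and *AREG* (82.1) lie farthest to the right, and with this length all 5 other ligands of the family lie below 1.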

How the data were processed

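Poly(A) RNA of 12 HCT116 samples had been sequenced as single-end reads of 75 nt in a strand-specific library. The authors mapped the reads to hg38 with ContextMap using BWA, counted them per gene and strand with featureCounts and GENCODE version 25, and deposited raw counts without normalization. Each of the 12 columns was assigned by its name to 1 sample. As all columns were identical (0 genes differed), they were counted as 1 sample, and no test between conditions was run. The reason for this was not tested.

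Identifiers were matched without version suffix to GENCODE v44 (56948 of 58037). CPM is relative to the total of 22720718 counts, at which 3 counts correspond to 0.132 CPM. RPKM used merged exon length, with canonical transcript and coding length (3 bases a residue) as alternatives. Since GENCODE 25 was used for counting, the lengths may differ from those of the counted exons. Intervals (95%, Python 3.11.15, scipy 1.17.1) cover counting error only, and the interval functions and the motif search were tested on simulated data. Promoter windows came from the RefSeq table, with an entry for 9 of the 10 genes. All 10 genes were to be named, and of each other list its highest and lowest gene, every gene of lists of up to 6, the neighbours of the receptors and the highest 3 kinases. Other genes named within lists were chosen after their values were seen. The 10 genes and the lists were chosen with earlier results of these data known.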

Additional observations from a re-analysis of the deposited data

How the results depend on the processing

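No paired analysis was possible because the columns do not differ, and for the same reason the planned tests of drug effects, with other normalizations and filters or without each replicate, were not run. The number of ERBB genes past the threshold was 7 with an RPKM of at least 1, 7 with canonical transcript length and 8 with coding length. It was 8 with a CPM of at least 1, 9 with at least 10 counts and 10 with no filter. Of all 19629 protein-coding genes, 8754 passed with merged exons and 9631 with canonical transcript length. With no filter, all but the 4779 with 0 counts passed. The shares of all protein-coding genes at the other thresholds are not given here. The ratio of *ERBB2* to *ERBB3* was between 2.52 and 2.90 with the other lengths. The ratio of *AREG* to *EREG*, 1.82 with merged exons, was 1.96 with canonical transcripts and reversed to 0.351 with coding length, by the construction of the latter. Among the 58 receptor tyrosine kinases, *EGFR* (22nd) was 19th with canonical transcripts and 16th with coding length, *ERBB2* (10th) 9th and 11th, *ERBB3* (15th) 13th and 15th, and *ERBB4* (45th) 46th and 44th. Canonical length raised single RPKM values by up to 2.26 times and coding length by 2.11 to 11.3 times. Leaving mitochondrial genes out of the total raised all 10 values by 1.12 times, and a total of protein-coding genes by 1.10 times. Each change multiplies all values by the same factor, so that the order could not change. Depth limits *ERBB4* and *EGF*, with 2 and 10 counts, most.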
